A study of Mus musculus with 2 samples.

Results

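Imprinting control regions are stretches of CpG-rich DNA that carry methylation on a single parental chromosome, and 14 of them were examined in the dentate gyrus of adult mice. The regions were chosen by position in the mm9 build, as windows of 3 to 11 kb around the control regions of Peg3, H19, Kcnq1ot1, Nespas, Gnas, Nnat, Peg10, Mest, Airn, Plagl1, Grb10, Zrsr1, Impact and Peg13. All 14 windows held listed CpG sites, 180 in total, of 2881237 nuclear CpG sites listed for the library. The windows covered 73 kb together. The rule itself uses positions and no methylation value, although it was written with results of these data known.

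The tissue was the dentate gyrus, micro-dissected on both sides from male mice of 8 to 10 weeks on the C57BL/6 background (strain label C57Black6). The dentate gyrus is the part of the hippocampus that holds the granule neurons, together with interneurons and glia, so each level is an average over the cells of the tissue. Methylation counts give no marker expression, so the tissue label was not checked. Both libraries were wild type and form 1 group, with no treatment, and the number of animals behind each is not given in the sources used here. Whole-genome bisulfite sequencing reads an unmethylated cytosine as thymine and a methylated one as cytosine, and does not separate methylcytosine from hydroxymethylcytosine. The tables give, for each cytosine of a single strand class, the number of methylated and unmethylated reads, in CpG, CHG and CHH contexts, where H is A, C or T. The tables of replicate 2 hold 27435342 cytosines and 791200717 calls in all, and those of replicate 1 hold 172020 cytosines and 30594981 calls. Replicate 1 had 0 CpG sites inside the windows, so the levels below come from 1 library, replicate 2, and there is no replicate error. Intervals are exact Clopper-Pearson intervals at 95%, and they cover counting error only, since reads copied by PCR and counted without molecular identifiers need not be separate molecules. A DNA piece that covers several sites is also counted at each of them, so intervals over closely spaced sites are too narrow, and groups of such sites are given without one.

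Genomic imprinting is the expression of a gene from the maternal or the paternal chromosome alone. The mark is laid down in the germ line by DNA methylation of a control region, survives the wave of demethylation after fertilization, and is then copied in body cells at each division. In a diploid tissue, a region methylated on a single parental chromosome gives methylated and unmethylated reads in about equal number, and is known for that in brain as in other tissues. Of the 14 regions, H19 is the one methylated on the paternal chromosome, and the others are methylated on the maternal one. The mice were not a cross between strains as far as the labels say, so reads could not be assigned to a parent here. The zinc finger protein ZFP57, which helps to keep the mark, binds the letters TGCCGC when their CpG is methylated.

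Promoters that lie in these windows differ in CpG content, and 3 are printed to show the kind of sequence on which the levels were measured or, more often, could not be. They come from RefSeq (GRCm38.p6), run from 250 bases before the gene's start to 50 after it, on the plus strand, and have CpG dinucleotides in capitals. Zrsr1 (chr11:22971755-22972054) encodes a U2AF-related splicing factor and was chosen because it carried a listed CpG site. Mest (chr6:30737800-30738099) encodes an enzyme of the hydrolase fold and was chosen for its TGCCGC motifs. Gnas (chr2:174327499-174327798) was chosen for its CpG density, though an overlapping Gnas entry has 28 CpG dinucleotides against its 27. The gene, which has other promoters outside the window, encodes the stimulatory G protein alpha subunit.
Zrsr1: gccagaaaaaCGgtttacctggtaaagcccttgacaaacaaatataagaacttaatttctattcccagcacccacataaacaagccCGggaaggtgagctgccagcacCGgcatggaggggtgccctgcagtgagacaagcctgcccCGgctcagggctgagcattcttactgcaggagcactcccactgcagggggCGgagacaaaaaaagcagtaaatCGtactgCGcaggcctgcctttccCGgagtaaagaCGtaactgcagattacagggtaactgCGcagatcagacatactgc
Mest: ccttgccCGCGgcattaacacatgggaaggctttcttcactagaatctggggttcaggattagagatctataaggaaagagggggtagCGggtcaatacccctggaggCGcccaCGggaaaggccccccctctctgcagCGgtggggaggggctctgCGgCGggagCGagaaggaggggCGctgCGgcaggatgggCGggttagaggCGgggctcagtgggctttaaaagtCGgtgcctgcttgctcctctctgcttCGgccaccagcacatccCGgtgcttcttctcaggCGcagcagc
Gnas: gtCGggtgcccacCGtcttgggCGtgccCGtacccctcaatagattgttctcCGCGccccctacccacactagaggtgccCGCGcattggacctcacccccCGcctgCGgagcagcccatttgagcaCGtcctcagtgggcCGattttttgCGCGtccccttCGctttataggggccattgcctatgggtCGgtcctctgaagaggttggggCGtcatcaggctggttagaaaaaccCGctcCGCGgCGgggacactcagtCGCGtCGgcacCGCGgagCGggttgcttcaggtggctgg

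The RefSeq table had 15 promoters for 9 of the 14 names. To place a promoter on the mm9 tables, all promoters within 1.5 Mb of it were slid together along the listed cytosines. Those cytosines that met a base of the same context were counted, and the best shared shift was used, without converting coordinates. Peg3 was not placed, since 87.0% of its listed cytosines matched. In this way 9 promoters of 7 genes fell inside their windows (Kcnq1ot1, Gnas, Nnat, Mest, Airn, Plagl1 and Zrsr1), with 3 to 28 CpG dinucleotides each, against a median of 7 over the 32851 promoters of the table. The Mest promoter printed above has 17 CpG dinucleotides, the Gnas promoter 27 and the Zrsr1 promoter 10. Of the 9 promoters inside, 7 carried no listed cytosine, Mest and Gnas among them, since the tables list CpG and CHG cytosines from 20 reads on a single strand class. The Zrsr1 promoter carried 5 listed cytosines. Its CpG at base 109, counted from 1 at the left end of the printed sequence, was methylated in 14 of 21 reads (66.7%), and the CHG cytosines at bases 99, 103, 108 and 271 were methylated in 0 of 22, 0 of 21, 0 of 22 and 0 of 20 reads. The Airn promoter carried 3 CHG cytosines, with 1 of 21, 1 of 20 and 0 of 20 methylated reads, and no listed CpG. The letters TGCCGC, searched on both strands, occurred in 5 of the 15 promoters, 2 times in the printed Mest promoter and in a second Mest entry shifted by a few bases, and 1 time each in a promoter of Nnat, Plagl1 and Grb10. They occurred in 11.6% of all promoters in the table.

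CpG methylation of the windows was close to 50% when all listed sites were read. Of 4135 reads over the 180 sites, 2091 were methylated, a level of 50.6% (95% interval 49.0% to 52.1%). This interval takes neighbouring sites as independent and is too narrow. With a single site kept per 300 bp the pooled level was 57.8% over 59 sites, outside the interval. The 20 kb on each side of the windows had a level of 72.8% (72.1% to 73.5%) over 738 sites, and all nuclear CpG sites a level of 79.2%. Flank sites that Nespas and Gnas share are counted for each of them in the 738. The pooled difference between windows and flanks was -22.2 percentage points. It was -22.06 points with the shared flank counted once, an alternative chosen after the data were seen. Window by window, the level ranged from 38.1% to 71.2% with a median of 46.7%, and that of the flanks from 56.0% to 90.03% with a median of 74.0%. The window was below its own flanks in 12 of 14 regions, and above them at Nespas and Grb10, while 43.3% of the tested nuclear tiles of 5 kb lay below their flanks. With a single site kept per 300 bp, an alternative chosen after the data were seen, the direction turned at Nespas (-10.4 points) and at Gnas (3.57 points).

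A level of 35% to 65% was found in 10 of the 11 windows with at least 10 listed CpG sites, Nespas being the exception, while 12.9% of 83167 nuclear tiles of 5 kb with as many sites lay in that range. The median tile was at 82.7%. Of the 3 windows with fewer sites, Kcnq1ot1 and Nnat lay in the range too, and Grb10 did not. Which windows lay in the range depended on the sites used. With a single site kept per 300 bp, Nespas entered it at 63.9%, while H19 (65.6%), Gnas (71.4%) and Mest (67.0%) left it. Fisher's exact test (two-sided) was also applied to each window and each tile against its flanks, and p-values were adjusted over all tiles and windows by the Benjamini-Hochberg method. A call needed an adjusted p under 0.05 and a difference of at least 20 percentage points. By this rule 8 of 11 windows were lower than their flanks, where 10.8% of tiles were, and 0 were higher, where 4.12% of tiles were. The 8 were Peg3, H19, Mest, Airn, Plagl1, Zrsr1, Impact and Peg13. This test compares reads of 1 library and takes neighbouring sites as independent, which they are not: DNA was sheared to pieces of roughly 300 bp and the 180 sites fell into 59 groups of that extent. With a single site kept per 300 bp, 4 windows could be tested and 1, Peg13, was called, where 6.88% of 125069 tiles were. A quasi-binomial test, which allows for spread between sites, called 6 of 11 windows with all sites, where 8.88% of tiles were. For those 6 its adjusted p ran from 1.6e-11 at Impact to 0.00779 at Plagl1, and Airn and Zrsr1 were lost.

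**Figure D1:**
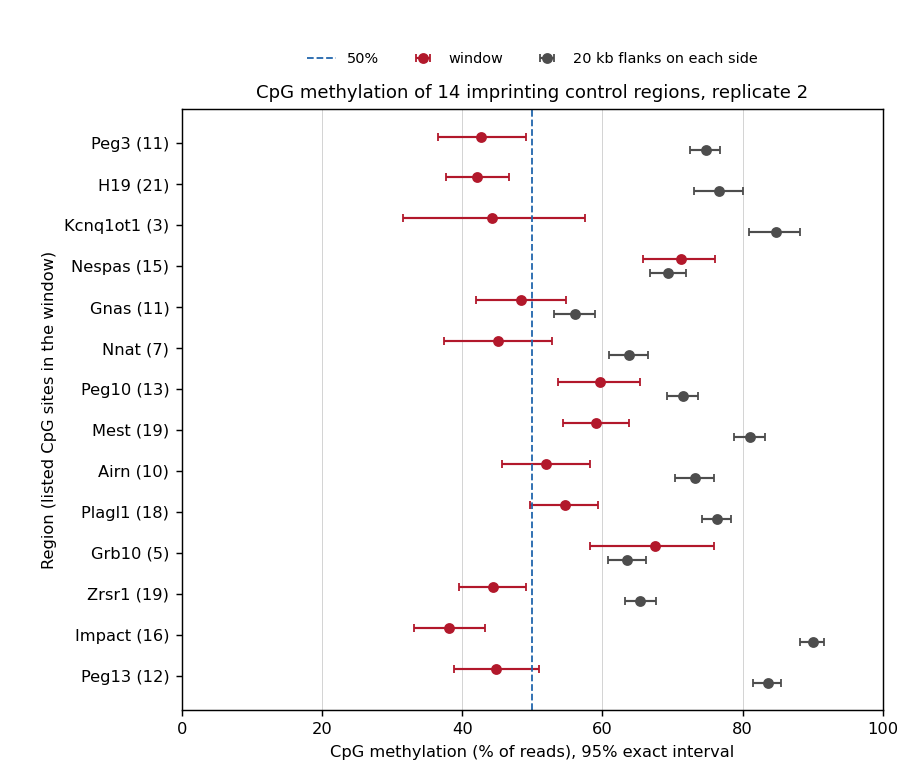
CpG methylation (percent of reads, x axis) of each window (red, upper point of each pair) and of its 20 kb flanks (grey, lower point) in replicate 2, with exact 95% intervals for counting error. The number of listed CpG sites is in brackets after each name. The red points of 12 regions lie left of the grey ones, from 38.1% at Impact to 59.7% at Peg10, and those of Nespas (71.2%) and Grb10 (67.5%) lie right of them.

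Among control regions that hold the promoter of a non-coding RNA, Kcnq1ot1, Airn and Peg13 were near 50% and Nespas was not. Kcnq1ot1 is the long RNA, transcribed antisense within Kcnq1, that silences neighbouring genes on the paternal chromosome, and its window (chr7:150479001-150484000) had 3 listed CpG sites. They were methylated in 7 of 20, 10 of 20 and 10 of 21 reads, a level of 44.3% (31.6% to 57.6%) against 84.8% in the flanks, and were too few to test. Airn, the antisense RNA that silences Igf2r in cis, had 10 sites in its window (chr17:12933001-12937000). Its level was 51.9% (45.7% to 58.2%) against 73.2% in the flanks (difference -21.2 points, Fisher's exact test, adjusted p = 8.0e-10), a call lost in a quasi-binomial test that allows for spread between sites (adjusted p = 0.152). The Airn sites ran between 36.0% at position 12934598 and 87.0% at position 12935724, with 5 sites in 98 bp at 47.4% and 4 further along at 60.6%. Peg13, a non-coding RNA transcribed from within an intron of Trappc9, had 12 sites in its window (chr15:72635001-72643000). All 12 lay between 7 of 20 reads (position 72638746) and 11 of 20 reads (position 72639827), the window level was 44.8% (38.8% to 50.96%), and the flanks were at 83.6% (difference -38.7 points, Fisher's exact test, adjusted p = 3.2e-36). The Peg13 sites formed 2 groups, 6 sites at 47.3% and 6 at 42.6%.

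Nespas and Gnas are parts of the same imprinted cluster, and their windows lie 23 kb apart, so they share flank. Nespas is the antisense RNA of the cluster. Its window (chr2:174117001-174128000), the longest of the 14, had 15 sites and a level of 71.2% (65.8% to 76.1%), against 69.4% in the flanks (difference 1.79 points, Fisher's exact test, adjusted p = 0.644). Of the 15 sites, 9 lay within 52 bp (positions 174124114 to 174124165) at 77.9%. Their counts were almost the same from site to site, 16 methylated of 21 reads at 7 of the 9 sites, 18 of 21 and 18 of 22 at the other two, so they are close to a single measurement on the same reads. The 6 Nespas sites elsewhere ran between 6 of 20 reads at position 174122920 and 19 of 20 reads at position 174127560. With a single site kept per 300 bp, the Nespas level was 63.9% and its difference -10.4 points (Fisher's exact test, adjusted p = 0.0547). With flanks of 10 kb the difference was 14.6 points (Fisher's exact test, adjusted p = 2.3e-05), so its size and direction changed with the sites and flanks used.

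The Gnas window (chr2:174151001-174155000), at the alternative first exon 1A whose methylation governs expression of the G protein in some tissues, split into a highly and a lowly methylated side. It had 11 sites, a level of 48.4% (41.9% to 54.8%) and flanks at 56.0% (difference -7.66 points, Fisher's exact test, adjusted p = 0.0508). On its left, the site at position 174151144 was methylated in 25 of 29 reads (86.2%) and the next 3 sites, up to position 174152511, were at 80.6%. On its right, 7 sites within 196 bp (174154210 to 174154405) were at 26.4%, the lowest at 10.0%. The pooled Gnas level near 50% is therefore a mean of sites above and below it. The flanks were split in the same way, with 39.9% in the right flank, where 12 of 27 sites were under 25%, and 81.3% in the left flank. With flanks of 50 kb the difference was -21.2 points (Fisher's exact test, adjusted p = 1.7e-10), which meets the rule for a call, and with flanks of 10 kb it was -2.95 points (adjusted p = 0.533). With a single site kept per 300 bp, the Gnas window was at 71.4% over 4 sites, outside the range of 35% to 65%, and 3.57 points above its flanks.

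H19, the one paternally methylated region, is bound by the insulator protein CTCF on the maternal chromosome and separates Igf2 from its enhancers there. Its window (chr7:149765001-149770000) had the most listed CpG sites, 21, at a level of 42.1% (37.7% to 46.6%) against 76.7% (73.0% to 80.1%) in the flanks. The difference was -34.6 points (Fisher's exact test, adjusted p = 1.2e-29). The sites were uneven. Of these, 17 lay between positions 149766033 and 149767290 at 35.7%, with a run of 8 sites from 149766222 to 149766296 at 5 to 8 methylated of 24 to 32 reads each, followed by 5 sites from 149766651 to 149766689 at 11 to 14 methylated of 20 or 21 reads. The lowest H19 site was methylated in 2 of 21 reads (position 149767134) and the highest in 22 of 22 reads (position 149769751), near the right edge. One site kept per 300 bp put the H19 window at 65.6% over 7 sites, and the call was then lost (difference -11.1 points, Fisher's exact test, adjusted p = 0.0283 but under 20 points).

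The remaining 8 regions belong to protein-coding genes expressed from the paternal chromosome, Grb10 doing so in neurons. Impact, which encodes a regulator of translation under amino acid stress, had the lowest window level and the highest flank level of the 14 when all sites were read. In the Impact window (chr18:13129001-13134000) the level was 38.1% (33.2% to 43.2%) over 16 sites, against 90.03% in the flanks (difference -51.9 points, Fisher's exact test, adjusted p = 2.0e-85). Of the 16 Impact sites, 14 lay below 50%: 8 sites in 35 bp, each with 20 to 25 reads, were at 31.8% and 6 sites in 87 bp at 33.3%. These 2 groups are close to 2 measurements, and with a single site kept per 300 bp Impact was at 54.35% over 4 sites, not the lowest of the windows, and -34.1 points from its flanks. A site well before these, at position 13130085, was methylated in 24 of 25 reads. The lowest Impact site, at position 13132347, had 4 of 20 methylated reads.

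Peg3 encodes a zinc finger protein known for its role in maternal behaviour and growth. In its window (chr7:6679001-6686000) 11 sites gave 42.7% (36.5% to 49.2%) against 74.7% in the flanks (difference -32.0 points, Fisher's exact test, adjusted p = 1.3e-21). A group of 7 Peg3 sites within 158 bp had 62 of 155 methylated reads, the lowest of them 4 of 21, while the single site near the left edge had 17 of 23 methylated reads (73.9%). Zrsr1, a retrotransposed gene inside an intron of Commd1, had 19 sites in its window (chr11:22871001-22875000) at 44.3% (39.6% to 49.2%) against 65.4% in the flanks (difference -21.1 points, Fisher's exact test, adjusted p = 1.1e-14). The quasi-binomial test did not call Zrsr1 (adjusted p = 0.0839). A dense group of 11 Zrsr1 sites in 295 bp stood at 46.5%, and another 6 sites at 38.9%, with extremes of 2 of 23 reads at position 22873783 and 15 of 20 at position 22872792. The CpG at base 109 of the printed Zrsr1 promoter, at 66.7%, is the site nearest the left edge of this window.

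Plagl1 encodes a zinc finger transcription factor that restrains cell growth. Its window (chr10:12809001-12812000) had 18 sites at 54.6% (49.7% to 59.4%) against 76.3% in the flanks (difference -21.7 points, Fisher's exact test, adjusted p = 8.2e-17), and -17.6 points with flanks of 10 kb, under the 20 points a call needs. The Plagl1 levels were lower toward the right of the window, with 20 of 20 methylated reads at position 12809258, 63.8% over the next 5 sites and 47.7% over the last 12, among which single sites still ran between 25.9% and 81.8%. Mest had 19 sites in its window (chr6:30684001-30690000) at 59.2% (54.4% to 63.7%) against 81.1% in the flanks (difference -21.9 points, Fisher's exact test, adjusted p = 4.3e-18). The Mest difference was -19.9 points with flanks that start 2 kb beyond the window and -19.96 points with flanks of 50 kb, just under the limit of a call, and -12.8 points with a single site kept per 300 bp. A group of 9 Mest sites in 547 bp was at 54.4%, and the extremes, 11 of 28 reads at position 30686115 and 20 of 24 at position 30686058, were neighbours in the list.

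Peg10, a gene derived from a retrotransposon and needed in the placenta, had 13 sites in its window (chr6:4696001-4700000) at 59.7% (53.7% to 65.4%) against 71.4% in the flanks. The Peg10 difference of -11.8 points passed the test (Fisher's exact test, adjusted p = 0.000263) but not the 20 points of a call. It was -2.40 points with flanks of 10 kb (adjusted p = 0.548) and -19.8 points with flanks of 50 kb, and the quasi-binomial test gave an adjusted p of 0.403. Its sites fell into 2 groups, 9 sites in 61 bp at 67.8%, each with 20 to 22 reads, and 4 sites in 70 bp at 45.1%. Nnat, a neuronal membrane proteolipid gene within an intron of Blcap, had 7 sites in its window (chr2:157384001-157388000) at 45.0% (37.4% to 52.8%) against 63.8% in the flanks. These Nnat sites ran between 5 of 21 reads at position 157385480 and 17 of 29 at position 157384998. Grb10 encodes an adaptor that dampens growth factor signalling, and its window (chr11:11924001-11927000) had 5 sites at 67.5% (58.2% to 75.9%), between 41.7% and 85.7%, against 63.5% in the flanks. The Grb10 flanks were uneven, at 44.7% on the right and 84.4% on the left, and with flanks of 50 kb the difference was -4.26 points in place of 4.03. Nnat and Grb10 had too few sites for the test.

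**Figure D2:**
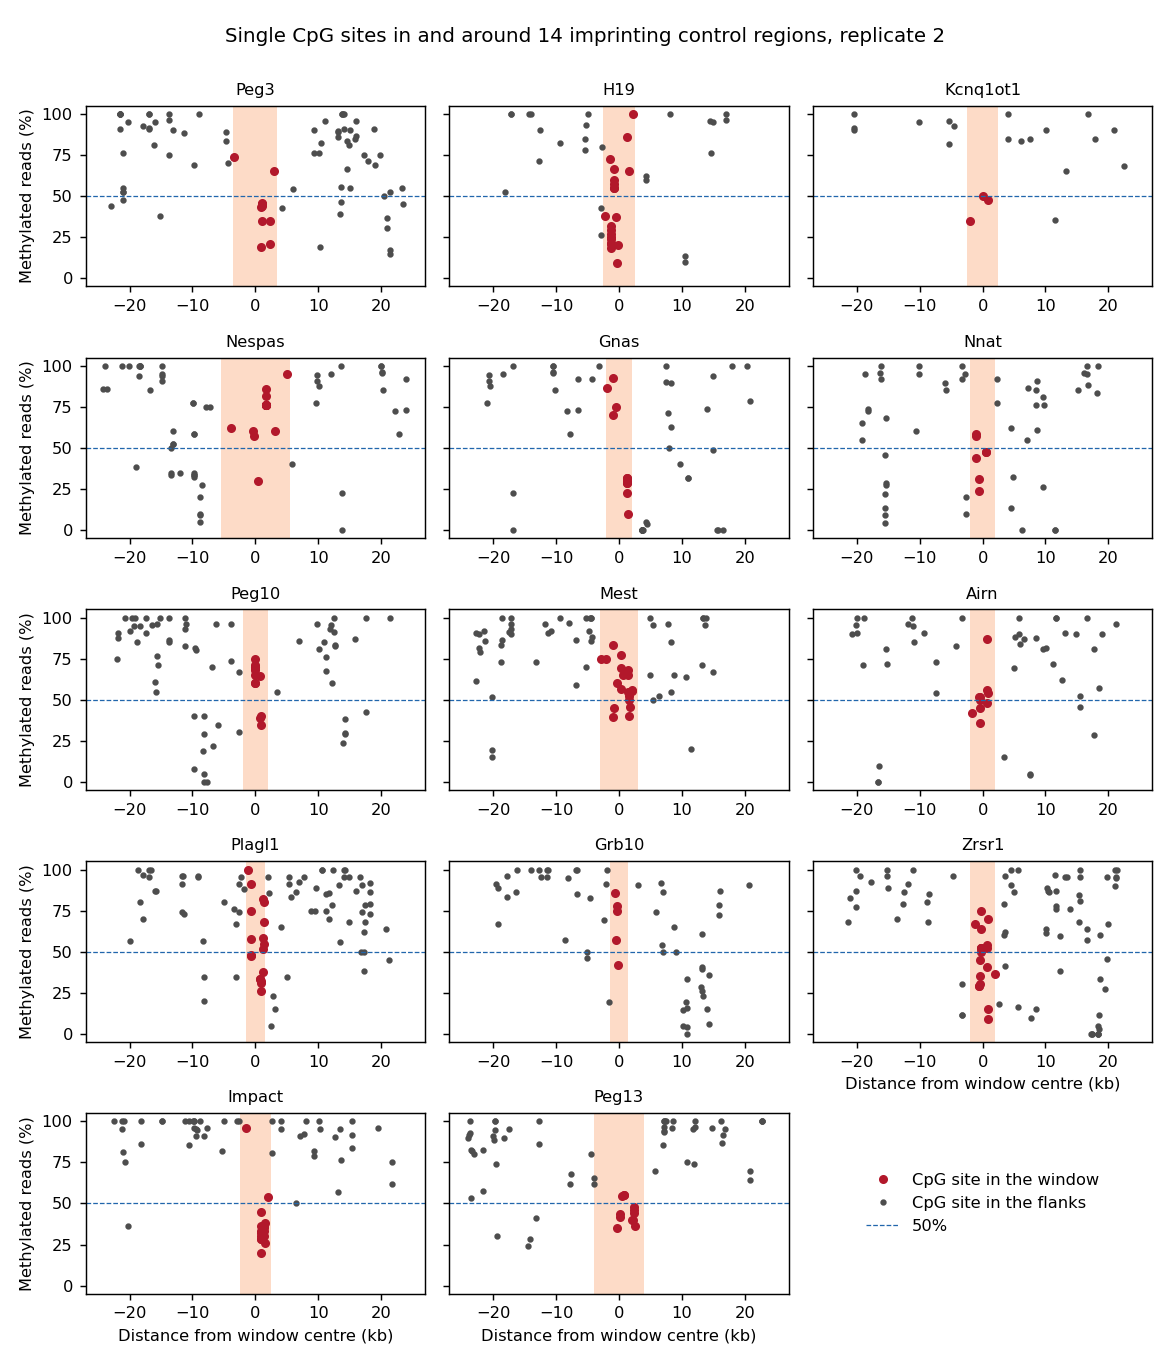
Methylation of every listed CpG site (percent of reads, y axis) by its distance from the window centre (kb, x axis), 1 panel per region, in replicate 2. Red points in the shaded band are sites of the window, grey points are sites of the 20 kb flanks, and the dashed line marks 50%. Peg13 and Peg10 show window sites between 34.6% and 75% only, Gnas shows a high left and a low right group, and Impact shows a column of low sites between flanks near the top of the panel.

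A pooled level near 50% can come from sites that are each partly methylated or from a mixture of high and low sites, so single sites were classed. In the windows 142 of 180 CpG sites (78.9%, 72.2% to 84.6%) had a level of 25% to 75%. In the flanks, with sites shared by Nespas and Gnas counted for each, 209 of 738 sites did (28.3%, 25.1% to 31.7%). Over all nuclear CpG sites the share was 23.0%. Only 24 window sites, or 13.3%, were above 75%, a class that held 60.7% of flank sites and 70.8% of nuclear sites. Below 25% lay 14 window sites (7.78%), against 10.98% of flank sites and 6.20% of nuclear sites. Partly methylated sites were the majority in 13 of the 14 windows, and all sites were partly methylated at Kcnq1ot1 (3 sites), Peg10 (13) and Peg13 (12). The 13 include Kcnq1ot1, Grb10 (5 sites) and Nnat (7 sites), which had under 10 sites. The share of tiles with such a majority was not computed, so these counts have no background to be read against. Nespas, with 5 of 15, was the exception to the majority, and it was also the one window whose share (33.3%) did not exceed that of its own flanks (37.5%). No test was run on these shares, since sites of a window share reads.

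**Figure D3:**
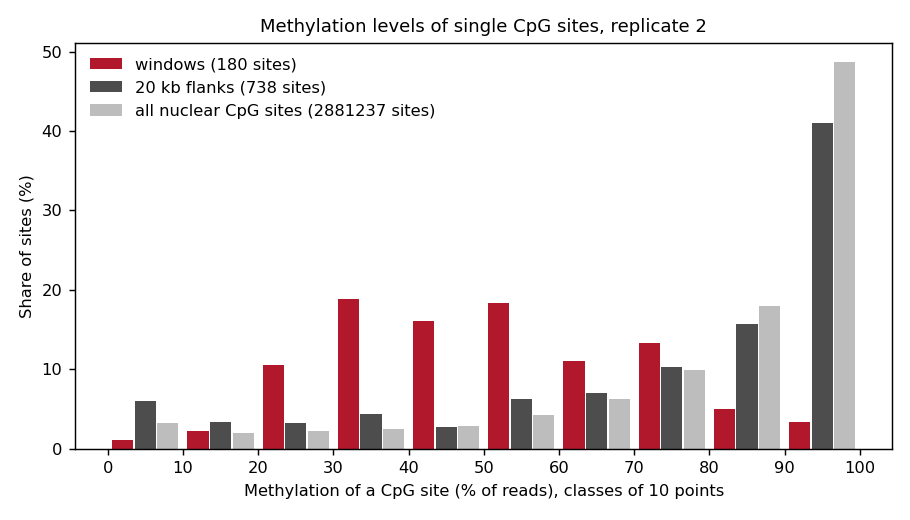
Share of CpG sites (percent, y axis) in classes of 10 percentage points of methylation (x axis) for the 180 window sites (red), the 738 flank sites (dark grey) and the 2881237 nuclear sites (light grey) of replicate 2. Flank sites shared by Nespas and Gnas are counted for each of them. Most red bars stand between 20% and 80%, whereas the highest bar of both other sets is the class from 90% to 100%.

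The extent of partly methylated CpG sites along each window was described by its longest run. The longest run of listed sites at 25% to 75%, bridging a single outside site at a time and no gap over 1 kb, held 112 of the 180 sites over the 14 windows. Such runs had 2 to 16 sites (median 6) and spanned 65 to 2916 bp (median 768 bp). Their middling levels follow from how the runs were picked, and runs in the flanks were not counted. The longest, at Mest, had 16 sites over 2916 bp at 56.0%. Zrsr1 had 15 sites over 1843 bp at 48.4%, Impact 15 sites over 1181 bp at 34.0%, and Peg10 all its 13 sites over 912 bp. At Gnas the longest run was 5 sites in 65 bp at 30.2%, on the low right side of the window.

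Among pairs with a middling mean level, neighbouring sites were also more alike in the windows. For pairs of adjacent listed sites whose mean level was 25% to 75%, the squared difference in level was divided by the value that independent reads from equal levels would give, a measure chosen after the data were seen. At 1 to 50 bp the ratio was 0.935 over 89 pairs in the windows, against 4.48 over 60 pairs in the flanks and 4.48 over 139624 nuclear pairs. In this distance class 56.2% of window pairs differed by at most 1 methylated read, against 23.3% of flank pairs and 18.4% of nuclear pairs. At 51 to 300 bp the ratio was 2.498 in the windows (15 pairs), 6.94 in the flanks and 7.99 over nuclear sites. At 301 to 1000 bp it was 2.67 in the windows (23 pairs), 9.07 in the flanks and 12.1 over nuclear sites. Adjacent sites at short distance are read on the same DNA pieces in all 3 sets, so the pairs are not independent and no test was run. Spacing within a distance class was not matched between the sets. Window pairs include dense groups, such as 8 Impact sites in 35 bp and 9 Peg10 sites in 61 bp. The limit on the mean level leaves out pairs of sites that are both above 75%. That class held 60.7% of flank sites and 70.8% of nuclear sites, and how alike such pairs were was not measured. The part that spacing or this limit plays in the ratios was not tested.

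**Figure D4:**
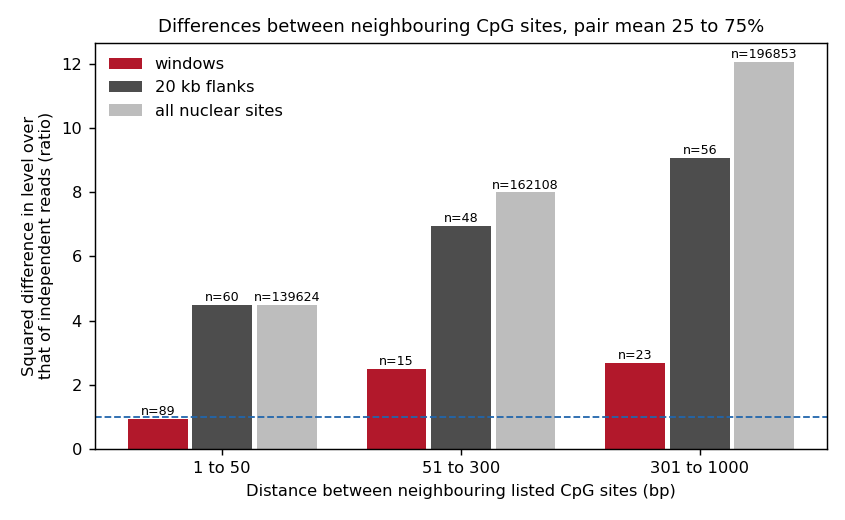
Squared difference in level between adjacent listed CpG sites, as a ratio to that of independent reads from equal levels (y axis), by distance between the sites (bp, x axis), for pairs with a mean level of 25% to 75% in windows (red), flanks (dark grey) and all nuclear sites (light grey) of replicate 2. The number of pairs is above each bar and the dashed line marks a ratio of 1. The red bar is the lowest in each of the 3 distance classes, at 0.935, 2.498 and 2.67.

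Methylation outside CpG, which the series set out to map, is a known feature of adult neurons and stands near 1% of reads. In the CHG context the windows had 50 methylated of 9050 reads over 380 sites, a level of 0.552% (0.410% to 0.728%), against 0.831% (0.774% to 0.892%) in the flanks and 0.781% over all nuclear sites. Mitochondrial CHG and CHH cytosines, taken as a measure of failed conversion, were at 0.367%. The pooled CHG difference between windows and flanks was -0.279 points, and at sites of at least 30 reads it was 0.0250 points, so it did not hold its direction. Few methylated window reads stand behind the second value. They were 6 of 31 at a single Gnas cytosine, 2 of 32 at Mest, 2 of 30 at Airn and 1 of 32 at Zrsr1. Of the 14 windows 9 were lower than their flanks, 4 were higher, and Peg3 was within 0.01 points of its flanks at 0.426%, a count to be read against 55.2% of tiles lower than their flanks in CHG. The 4 higher were Gnas (2.06% in the window and 1.02% in the flanks), Plagl1 (1.37% and 0.786%), Zrsr1 (0.856% and 0.569%) and Airn (0.890% and 0.832%), and the intervals of window and flanks overlapped at each of the 4.

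By Fisher's exact test with Benjamini-Hochberg adjustment, 1 of the 6 windows with at least 30 CHG sites was lower than its flanks in CHG, where 2.09% of 321563 tiles were, and 0 were higher, where 4.38% of tiles were. That window was H19, where 0 of 1283 reads over 54 CHG sites were methylated, which allows a level of up to 0.234%, against 0.838% in the flanks (Fisher's exact test, adjusted p = 0.00644). This limit lies below the mitochondrial level of 0.367% taken as failed conversion, and that difference was not tested. The H19 call was lost with flanks of 10 kb (adjusted p = 0.166) and in the quasi-binomial test (adjusted p = 0.324). Impact had 1 of 929 reads methylated (0.108%, 0.00273% to 0.598%) against 0.579% in its flanks, and did not pass (Fisher's exact test, adjusted p = 0.319). Kcnq1ot1 had 0 of 240 reads, which allows up to 1.25%, and was not tested. In the Gnas window a few cytosines held most methylated CHG reads, 6 of 31 reads (19.4%) at position 174152011 and 4 of 21 at position 174151201. Both lie on the left side, where the CpG sites were also highly methylated, and 12 of 584 reads were methylated in the whole Gnas window. In all, 31 of the 380 window CHG sites (8.16%) had a methylated read, against 10.3% of nuclear CHG sites.

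**Figure D5:**
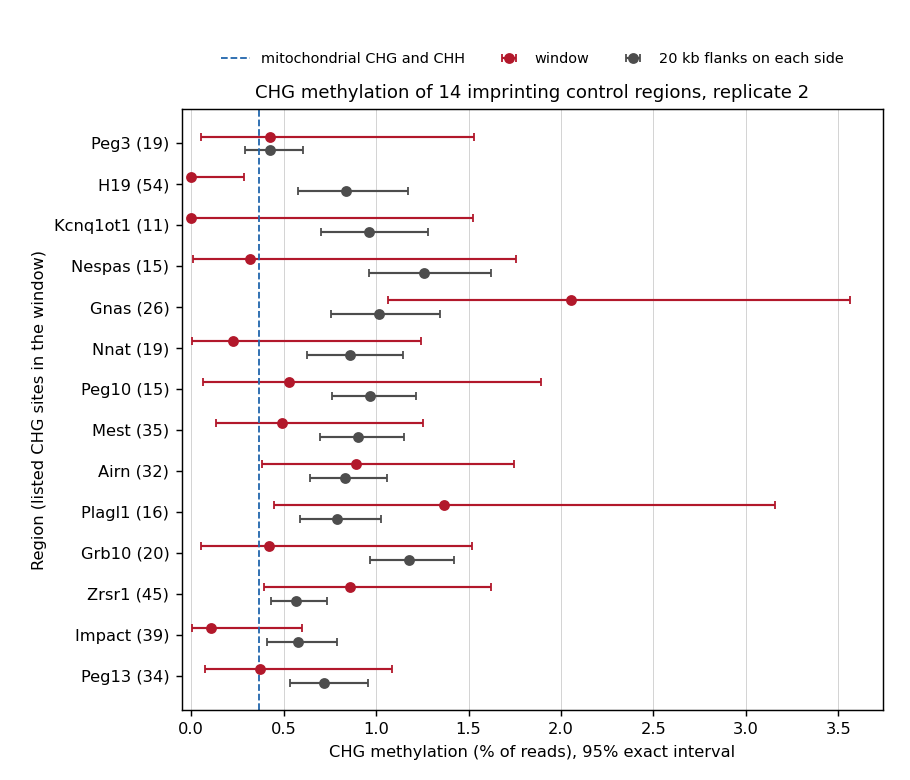
CHG methylation (percent of reads, x axis) of each window (red, upper point of each pair) and of its 20 kb flanks (grey, lower point) in replicate 2, with exact 95% intervals for counting error. The number of listed CHG sites is in brackets, and the dashed line marks the mitochondrial CHG and CHH level of 0.367%. H19 (0 of 1283 reads) is the only window whose interval lies wholly below that of its flanks.

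In the CHH context the windows had 20 methylated of 3393 reads over 104 sites in 11 windows, a level of 0.589% (0.360% to 0.909%) against 1.045% (0.937% to 1.16%) in the flanks. The window was lower in 8 of these 11 regions, and 5 had no methylated CHH read (Peg3, Gnas, Nnat, Mest and Impact). The share of tiles below their flanks was not computed for CHH, so these counts have no background to be read against. Some windows also had few CHH reads, such as 64 at Gnas and 123 at Nnat. A single Zrsr1 cytosine, at position 22874990, held 9 of the 20 methylated reads, being methylated in 9 of 30 reads. It was the CHH site named after its value was seen.

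Coverage set what could be measured. The median depth at window CpG sites was 22 reads, against 23 over all nuclear CpG sites, and the deepest window CpG site had 32 reads, so a single site has a wide interval, for example 27.2% to 72.8% for 10 of 20 reads at Kcnq1ot1. CpG sites were listed at 2.47 per kb in the windows, against 1.32 per kb in the flanks, and CHG sites at 5.21 against 7.03 per kb. The CpG share of listed CpG and CHG sites was higher in the window than in its flanks in 14 of 14 regions, for example 52.9% against 20.6% at Plagl1 and 28.0% against 12.6% at H19. A tile of the genome is 5 kb long and a window 3 to 11 kb, and the part that length or CpG density plays in the comparison with tiles was not tested.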

How the data were processed

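Bismark 0.7.5 and the build mm9 are named in the submitters' processing notes, while trimming and duplicate removal are not given in the labels. Per the labels' protocols, DNA was spiked with 0.5% unmethylated lambda DNA, sheared, converted and amplified by PCR. The authors deposited 6 tables without header, 1 per library and context, with read counts (methylated, unmethylated, total) for each cytosine of the OT strand class. The deposited tables also hold the percent of methylated reads. The lowest depth was 20 reads, and 30 reads for CHH in replicate 2. The tables do not say whether positions count from 0 or from 1, so printed positions are as listed.

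The windows and lists were chosen with earlier results of these data known. Levels are methylated over all reads in replicate 2. Flanks were 20 kb on each side. Windows and 5 kb tiles needed at least 10 CpG or 30 CHG sites in the region and in its flanks, and tiles in the comparison of levels needed 10 CpG sites. Fisher's exact test (two-sided) on counts compared windows and tiles with their flanks, adjusted by Benjamini-Hochberg. It was tried on simulated reads that were independent, with no spread between sites. That trial therefore does not give the error rate for these data, where neighbouring sites share reads. A level of 0 was given with an upper limit of 3 reads. All 14 windows are named, with the highest and lowest CpG site and the top CHG site, while groups of sites with gaps under 500 bp, neighbour pairs (at most 100 reads), promoter placement (within 1.5 Mb, at least 90% of listed cytosines matching) and the alternatives of 1 site per 300 bp and of leaving out a window were added after the data were seen. Other alternatives varied depth, window edges, flanks, tiles, bands and the test. Python 3.11.15, NumPy 2.4.6, SciPy 1.17.1, pandas 2.3.3, Numba 0.67.0 and Matplotlib 3.10.9 were used. No mm9 sequence or annotation was used, and the RefSeq promoters are of another build, GRCm38.p6. Results for the opposite strand and the lambda reads were not analysed here.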

Additional observations from a re-analysis of the deposited data

How the results depend on the processing

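Of the alternatives, those that follow moved a pooled result. The pooled CpG level of the windows was 38.9% at sites of at least 30 reads (8 sites), 49.0% with windows trimmed by 1 kb, 52.6% with windows widened by 1 kb and 57.8% with 1 site per 300 bp. Windows at 35% to 65% numbered 6 of 7 after trimming and 1 of 1 with at least 20 sites. The difference from the flanks was -35.4 points at 30 reads, -19.1 with flanks of 10 kb, -26.1 with flanks of 50 kb, -24.4 with flanks from 2 kb beyond the window and -17.3 with 1 site per 300 bp. Windows lower in CpG numbered 1 of 4 with 1 site per 300 bp, where 6.88% of tiles were called. The CHG difference reversed to 0.0250 points at 30 reads and was -0.455 points for CHH, and windows lower in CHG numbered 0 with flanks of 10 kb and 0 in the quasi-binomial test. Partly methylated sites made up 50% with limits of 35% to 65% (11.7% of nuclear sites) and 100% at 30 reads (8 sites), and the longest runs held 66 sites with limits of 35% to 65%. For Grb10 the difference reversed to -4.26 points with flanks of 50 kb. Fewer sites or windows entered at 30 reads, after trimming, with 20 sites and with 1 site per 300 bp. In the last of these, H19 and Mest could still be tested. Their differences of -11.1 and -12.8 points were under the 20 points of a call. The cause of the changes was not tested.

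With 1 window left out at a time, the pooled CpG level was 48.9% to 51.8%, the difference from the flanks -24.2 to -19.7 points, the CHG difference -0.372 to -0.187 points, the share of partly methylated sites 77.3% to 83.0%, windows in the range 9 to 10, windows lower in CpG 7 to 8 and windows lower in CHG 0 to 1, the 0 being without H19. At least 40 reads left no CpG site in the windows, and replicate 1 had none, so those alternatives gave no value. A depth of 20 to 32 reads per window CpG site limits what can be read from a single site. Over all alternatives, 118 recomputed values of pooled results and 92 of single regions or of the tiles kept their direction and stayed within the limits used. Most of the 118 come from leaving out 1 window at a time. Differences of single regions could change in size and still be counted here. That of Nespas was 1.79 points with flanks of 20 kb and 14.6 with flanks of 10 kb, and that of Peg10 -11.8 and -2.40. Values under an upper limit on depth are counted too, although no window CpG site was deep enough to be removed by it. No paired analysis was possible because the samples form 1 group.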

Other observations

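The flanks were not even with distance. On the left side the CHG level was 1.21% (1.01% to 1.44%) within 4 kb of the windows and 1.06% (0.858% to 1.30%) at 4 to 8 kb, against 0.610% (0.468% to 0.781%) at 16 to 20 kb. On the right side it lay between 0.719% and 0.858% in each of the 5 distance classes of 4 kb. The CpG level of the flanks was lowest within 4 kb on the right, at 61.2% (58.8% to 63.6%), and highest at 8 to 12 kb on the left, at 87.3%. The cause was not tested.

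Sites below 25% in the flanks were unevenly spread, with 12 of 27 in the right flank of Gnas, 9 of 28 in that of Grb10, 13 of 54 in that of Zrsr1, and 6 of 26 and 4 of 24 in the left and right flanks of Nnat, against 0 of 28 and 0 of 22 on either side of Impact. In replicate 1 the windows held 1 CHG site, at Impact, with 1 of 20 reads methylated, and 2 CHH sites with 0 of 42 reads methylated.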
